A study of Ovis aries with 3 samples.

Results

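Mitochondrial complex I, the NADH:ubiquinone oxidoreductase, takes electrons from NADH, passes them along iron-sulfur clusters to ubiquinone and pumps protons out of the mitochondrial matrix. Its matrix arm holds the redox centres and its membrane arm the proton pumps, and the catalytic core is surrounded by accessory subunits that stabilise it. Core subunits of the matrix arm and all accessory subunits are encoded by nuclear genes named NDUF, whereas the core of the membrane arm is encoded by mitochondrial DNA. Assembly factors, named NDUFAF or otherwise, help to build the enzyme and are absent from the finished complex.

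Transcripts of the nuclear NDUF genes were examined in RNA of extracellular vesicles from sheep conceptuses. Every row of the deposited table whose symbol began with NDUF was taken, which gave 35 of 25197 rows, none of them a numbered copy. The 3 libraries formed 1 group. They came from vesicles shed by intact conceptuses of day 14 of pregnancy, each kept for 24 h in its own dish in 10 ml of DMEM/F-12 with 10% fetal bovine serum depleted of exosomes, glutamine, insulin, pyruvate, nonessential amino acids and antibiotics. The labels give no breed or genotype, do not say which animal a library came from, and name no control group or library of conceptus cells. Part of the spread between libraries may thus be technical.

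The table holds 1 value per gene and library, rounded to 1 decimal, and names no unit. The values were taken as scaled for gene length and library depth and are called RPKM-type here. Comparisons of levels between genes rest on that reading, and the number of reads behind a value is unknown. Values of each library summed to 17480.7, 40060.3 and 9531.8 in libraries 1, 2 and 3. Detection required that a row reach 1 in every library, and levels of gene classes were medians of log2(value + 1). Of the trophectoderm markers, taken for the labelled origin, 3 of 7 rows were detected, where 3.89% of all rows were. KRT8 had 26.3, 138.9 and 27.3 in libraries 1, 2 and 3, and TP-1, interferon tau, had 6.7, 26.2 and 4.7. The other detected row was S100G. GATA3, ELF5, TFAP2C and CDX2 were not detected, at means of 1.6, 0.667, 0.367 and 0.233. Of the uterine epithelium markers 4 of 5 rows were detected. Of 5 rows for vesicle markers CD9 and HSPA8 were detected, while TSG101 stood at 0, 4 and 0. With 3 libraries in 1 group, an exact sign-flip permutation test could not give a two-sided p below 0.25, so differences between classes are given with their spread and without a p.

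Of the complex I subunit rows 17 of 28 were detected, and of the NDUFAF assembly factors 0 of 6, which is near the 3.89% of all rows. Of the 35 NDUF rows, 17 were detected (48.6%, against 3.89% of all rows), 4 more reached a value of 1 in 2 libraries, 9 in 1 library and 5 in none. Over all 25197 rows the last 3 counts were 1292, 2246 and 20678. At a value of 1 in at least 2 libraries stood 21 of the 35, against 9.02% of all rows. The median log2(value + 1) of the NDUF rows was 2.03 ± 0.92 (SD, n = 3), against 0.14 ± 0 for all other rows, a difference of 1.89 ± 0.92. Their median rank lay at the 96.7th, 97.6th and 94.7th percentile of all rows in libraries 1, 2 and 3. Together they made up 0.612%, 0.817% and 0.605% of the summed values. None was among the 100 highest rows of any library, and 16, 16 and 7 were among the 500 highest of libraries 1, 2 and 3. The rows close to the detection limit were NDUFS8, with a lowest value of 1.1, on the inner side, and NDUFAF1 and NDUFAF2, each with a lowest value of 0.8, on the outer side.

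Olfactory receptor genes gave a measure of background, since they are transcribed mainly in the nasal epithelium. The 99th percentile of their 476 rows was 1.45, 1.03 and 1.75 in libraries 1, 2 and 3, and 3 of the 476 rows met the rule for detection. Of the 17 detected NDUF rows, 13 exceeded this percentile in every library. The other 4, namely NDUFB10, NDUFB6, NDUFA10 and NDUFS8, fell below it in library 3, at values of 1.7, 1.6, 1.6 and 1.1.

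**Figure D1:**
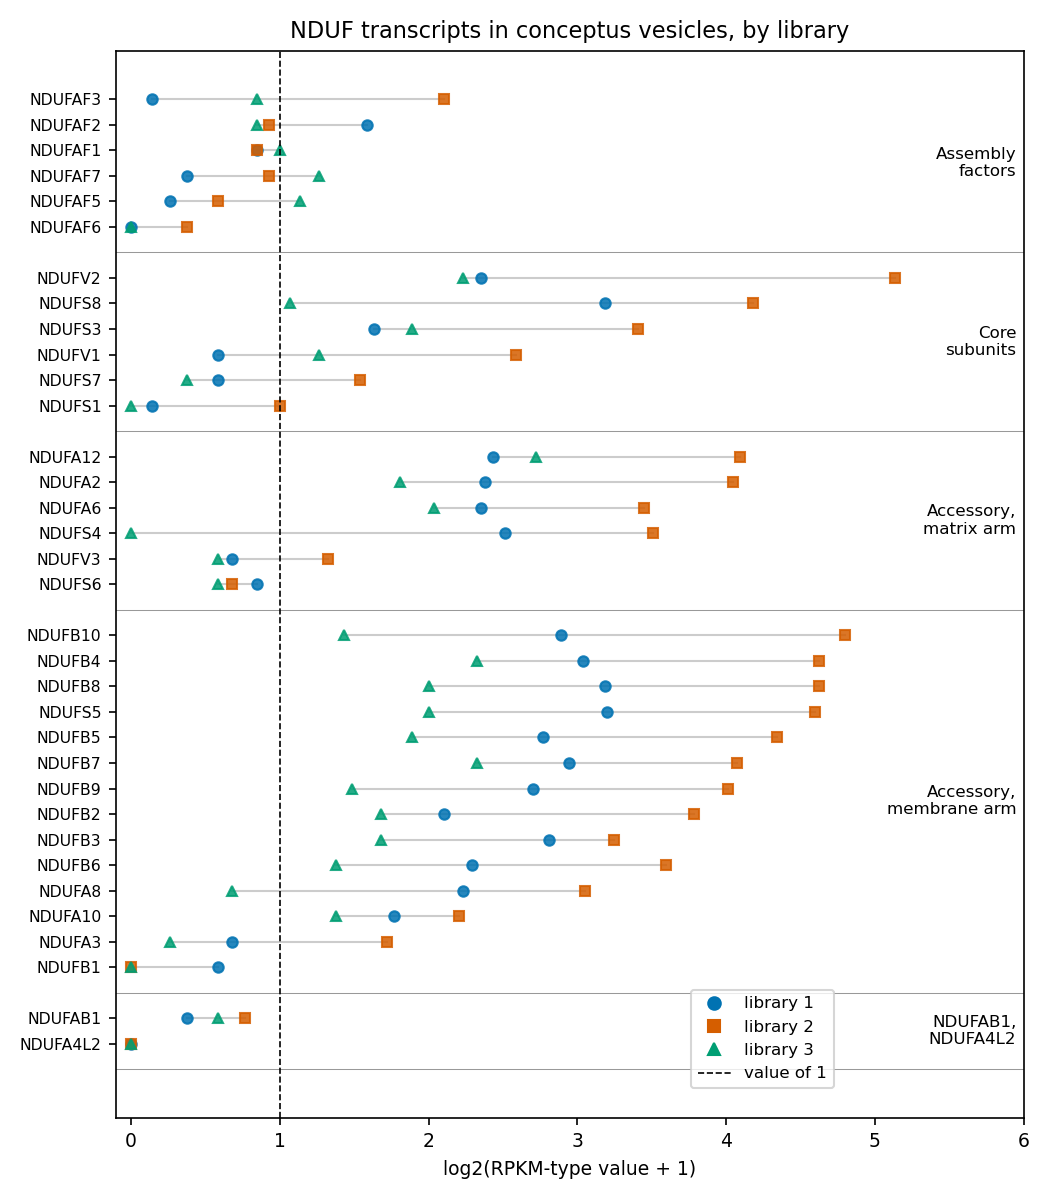
Level of 34 of the 35 NDUF rows as log2(RPKM-type value + 1) on the horizontal axis, with 1 symbol per library and a grey line over their range; rows are grouped by class and ordered by mean, and the dashed line marks a value of 1. Library 2 is highest for every subunit drawn except NDUFS6 and NDUFB1, and the values of the 6 assembly factors range up to 3.3, for NDUFAF3 in library 2.

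The 7 nuclear core subunits spread widely, and 3 were detected. NDUFV2, the flavoprotein subunit that carries a binuclear iron-sulfur cluster next to the NADH site, had the highest mean of all NDUF rows, with values of 4.1, 34.2 and 3.7 in libraries 1, 2 and 3 (14.0 ± 17.5; SD, n = 3). Its mean rested on library 2, which was 8.34 times library 1 and 9.24 times library 3. NDUFV1, its partner that binds NADH and the flavin cofactor, stood at 0.5, 5 and 1.4 (2.30 ± 2.38; SD, n = 3). NDUFS1, the largest core subunit and the remaining member of the NADH-oxidising module, stood at 0.1, 1 and 0 (0.367 ± 0.551; SD, n = 3). The transcripts of this module were thus of unequal level in each library, with NDUFV2 above NDUFV1 by factors of 8.2, 6.84 and 2.64 in libraries 1, 2 and 3 and NDUFS1 lowest. NDUFV1 did not reach the background level of olfactory receptor genes in library 1 (1.45) or library 3 (1.75), and NDUFS1 reached it in none. The factors for libraries 1 and 3 are thus rough, and the order of NDUFV1 and NDUFS1 there is not resolved.

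The other core subunits form the module that hands electrons to ubiquinone. NDUFS8, which carries iron-sulfur clusters, had values of 8.1, 17.1 and 1.1 (8.77 ± 8.02; SD, n = 3). NDUFS3, a core subunit without a cluster, had 2.1, 9.6 and 2.7 (4.80 ± 4.17; SD, n = 3). Both were detected, and library 2 was the highest for each, but their lowest values fell in different libraries. NDUFS7, which carries the last cluster before ubiquinone, stood at 0.5, 1.9 and 0.3 (0.90 ± 0.872; SD, n = 3). Within this module NDUFS8 exceeded NDUFS7 by factors of 16.2, 9 and 3.67 in libraries 1, 2 and 3. The factors for libraries 1 and 3 are rough, because NDUFS7 stayed under the background of 1.45 and 1.75 there. In library 3 NDUFS8 did so as well, so that factor compares values within background. The pair of NDUFS8 and NDUFS7 and that of NDUFV2 and NDUFV1 were chosen after the values were seen.

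Accessory subunits of the matrix arm fell into a higher and a lower set. NDUFA12, which lies near the junction of the NADH and ubiquinone modules, had values of 4.4, 16.1 and 5.6 in libraries 1, 2 and 3 (8.70 ± 6.44; SD, n = 3), and its lowest value of 4.4 was the highest such minimum of all 35 rows. NDUFA2, a small protein with a thioredoxin fold, had 4.2, 15.5 and 2.5 (7.40 ± 7.07; SD, n = 3). NDUFA6, a member of the LYR family that binds the acyl carrier protein, had 4.1, 9.9 and 3.1 (5.70 ± 3.67; SD, n = 3). These 3 were detected, with library 2 above the other libraries for each. NDUFS4, a subunit added late in assembly whose loss causes Leigh syndrome in humans, stood at 4.7 and 10.4 in libraries 1 and 2 and was listed at 0 in library 3. It had the largest SD of log2(value + 1) among NDUF rows with a mean of at least 1, at 1.81, followed by NDUFB10 (1.69), NDUFV2 (1.64), NDUFS8 (1.59) and NDUFB8 (1.31). NDUFV3, a small flavoprotein subunit of the NADH module, stood at 0.6, 1.5 and 0.5. NDUFS6, a zinc-binding subunit, stood at 0.8, 0.6 and 0.5 (0.633 ± 0.153; SD, n = 3), and was among the 2 subunits with no maximum in library 2.

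Of the 14 rows for accessory subunits of the membrane arm, 11 were detected. NDUFB10, an intermembrane-space protein with paired cysteine motifs, had values of 6.4, 26.8 and 1.7 in libraries 1, 2 and 3 (11.6 ± 13.3; SD, n = 3). Of the same fold, NDUFS5 had 8.2, 23.2 and 3 (11.5 ± 10.5) and NDUFB7 had 6.7, 15.8 and 4 (8.83 ± 6.18; SD, n = 3). NDUFA8, also of that fold, stood at 3.7, 7.3 and 0.6 and missed detection through library 3. The order of these rows was the same in all 4 cases, with library 2 highest and library 3 lowest.

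Subunits of the membrane arm with a transmembrane segment reached similar levels. NDUFB4 had 7.2, 23.6 and 4 in libraries 1, 2 and 3 (11.6 ± 10.5; SD, n = 3). NDUFB8 had 8.1, 23.6 and 3 (11.6 ± 10.7; SD, n = 3), although its deposited description reads only as an uncharacterized protein. NDUFB5 had 5.8, 19.3 and 2.7 (9.27 ± 8.83; SD, n = 3). The SDs of NDUFV2, NDUFB10, NDUFB4, NDUFB8, NDUFS5 and NDUFB5 lay between 90.6% and 125% of their means, so the order among these leading rows is not resolved by 3 libraries. NDUFB2 (3.3, 12.8 and 2.2), NDUFB3 (6, 8.5 and 2.2) and NDUFB6 (3.9, 11.1 and 1.6) followed at means between 5.53 and 6.10. NDUFB9, a LYR-family subunit at the tip of the arm, had 5.5, 15.1 and 1.8 (7.47 ± 6.86; SD, n = 3).

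The remaining membrane-arm rows were low or narrow in range. NDUFA10, which has the fold of a nucleoside kinase, had 2.4, 3.6 and 1.6 (2.53 ± 1.01; SD, n = 3), and its range of 2.25-fold between libraries was the smallest of the 17 detected rows, whose median was 6.20-fold and whose largest was 15.8-fold, for NDUFB10. NDUFA3 stood at 0.6, 2.3 and 0.2. NDUFB1, a short membrane protein, stood at 0.5 in library 1 and was listed at 0 in libraries 2 and 3.

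Rows set apart from the accessory class were also low. NDUFAB1, the mitochondrial acyl carrier protein, which serves in fatty acid synthesis as well as in complex I, stood at 0.3, 0.7 and 0.5 (0.5 ± 0.2; SD, n = 3). NDUFA4L2, a hypoxia-inducible relative of NDUFA4, was listed at 0 in all 3 libraries. With NDUFAB1 included, the 28 subunit rows fell on either side of a gap, with 21 at means above 2 and 7 at means of 1.03 or less. The lower set held core subunits (NDUFS1 and NDUFS7), matrix-arm accessory subunits (NDUFV3 and NDUFS6), membrane-arm accessory subunits (NDUFA3 and NDUFB1) and NDUFAB1. No row was named NDUFA1, NDUFA4, NDUFA5, NDUFA7, NDUFA9, NDUFA11, NDUFA13, NDUFB11, NDUFC1, NDUFC2, NDUFAF4 or NDUFAF8, and these genes were not analysed here.

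By stem, NDUFB had the largest share of detected rows. Of its 10 rows 9 were detected, against 4 of 7 NDUFA, 3 of 8 NDUFS, 1 of 3 NDUFV, 0 of 6 NDUFAF and 0 of 1 NDUFAB. The 7 NDUFA rows include NDUFA4L2, which is not counted among the subunits. It was listed at 0 in all 3 libraries and lowers the NDUFA median. The median log2(value + 1) was 2.83 ± 1.18 for NDUFB, 2.22 ± 0.84 for NDUFA, 1.64 ± 1.07 for NDUFS and 1.51 ± 0.98 for NDUFV (SD, n = 3). Differences taken within a library were smaller in spread than these levels. NDUFB exceeded NDUFA by 0.55, 0.99 and 0.30 and NDUFS by 1.55, 1.19 and 0.85 in libraries 1, 2 and 3. The order of all 4 stems did not hold in every library, since NDUFS lay below NDUFV in library 3, at 0.83 against 1.26. NDUFA exceeded NDUFS by 0.99, 0.20 and 0.55.

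Core subunits had a lower median level than accessory subunits in each library. Of the core rows 3 of 7 were detected (42.9%), against 14 of 20 accessory rows (70%). The median log2(value + 1) was 1.57 ± 0.91 for core and 2.56 ± 1.06 for accessory rows (SD, n = 3). Core minus accessory was -1.56, -1.11 and -0.32 in libraries 1, 2 and 3 (-0.99 ± 0.63; SD, n = 3), below 0 in 3 of 3. With the mean over rows in place of the median it was -0.50 ± 0.35. Against the accessory rows of the matrix arm alone, where all nuclear core subunits lie, it was -1.52, -0.89 and 0.07 (-0.78 ± 0.80), so the direction turned in library 3. The distributions overlapped, since NDUFV2 and NDUFS8 stood among the 8 highest rows and NDUFB1, NDUFS6, NDUFV3 and NDUFA3 among the lowest. Among detected rows alone the difference between core and all accessory rows was -0.07 ± 0.27 (SD, n = 3) and reached 0.12 within a library, so it was not below 0 throughout. Within the NDUFS stem, the 5 core rows minus the 3 accessory rows gave -1.66, -1.22 and 0.49, so the direction was not the same in library 3.

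By position in the enzyme, detected accessory rows made up 3 of 6 in the matrix arm and 11 of 14 in the membrane arm. Median log2(value + 1) was 2.35 ± 1.14 in the matrix arm and 2.74 ± 1.16 in the membrane arm (SD, n = 3). Matrix arm minus membrane arm was -0.37, -0.42 and -0.39 in libraries 1, 2 and 3 (-0.39 ± 0.03; SD, n = 3), and among detected rows alone it was -0.03 ± 0.39, with a highest library value of 0.36.

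**Figure D2:**
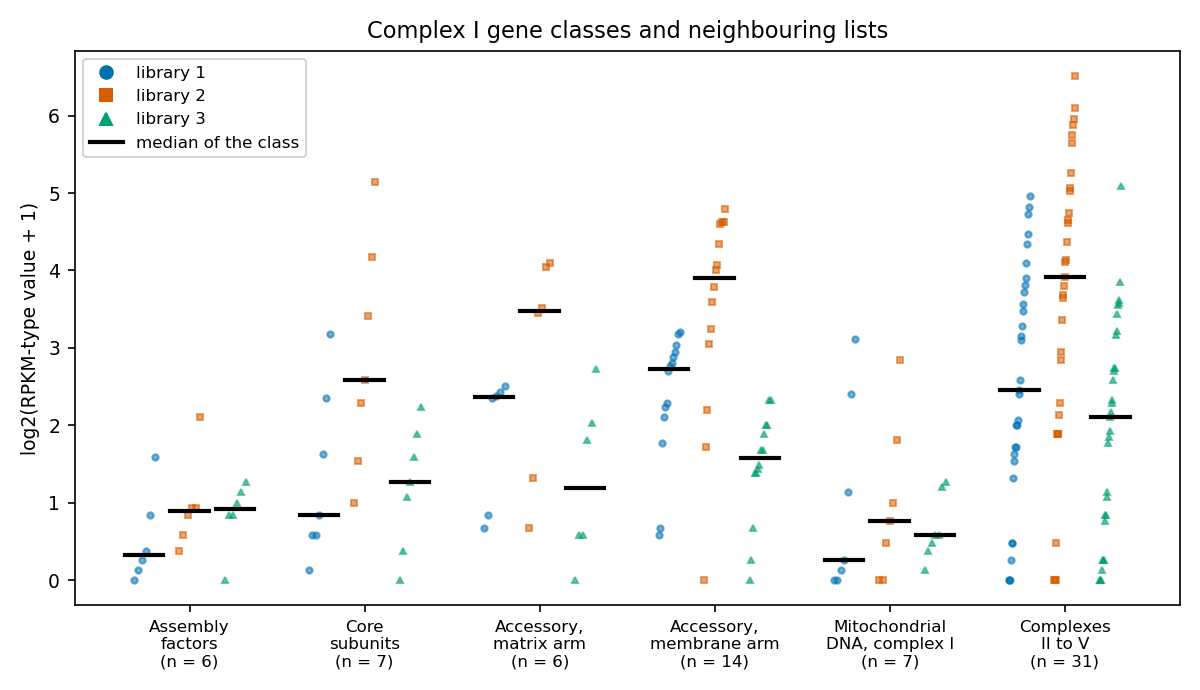
Levels by class as log2(RPKM-type value + 1); each point is a row, each colour and symbol a library, and the black bars are class medians. Core medians lie below those of the membrane-arm accessory rows in all 3 libraries (mean over libraries 1.57 and 2.74) and below those of the matrix-arm accessory rows in libraries 1 and 2, with overlapping points, and assembly factors have a mean median of 0.71.

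Protein mass differed between the classes. The deposited descriptions give a mass for 26 of the 28 subunits, from 7 to 75 kDa. The core subunits had a median of 30 kDa and the others of 15 kDa. The 4 subunits of 40 kDa or more, of which 3 are core and NDUFA10 is accessory, reached a median level of 1.43 ± 0.77 on the log2(value + 1) scale (SD, n = 3). The 6 subunits from 20 to under 40 kDa, 4 of them core, had 2.69 ± 1.33, and the 16 under 20 kDa, none of them core, had 2.44 ± 0.98 (SD, n = 3). In the middle class the core rows NDUFV2, NDUFS8 and NDUFS3 stood at means between 4.80 and 14.0, the accessory rows NDUFB10 and NDUFB9 at 11.6 and 7.47, and NDUFS7 at 0.90. Across the 26 subunits, Spearman's rho of mass with mean value was 0.11. It was 0.42 over the 19 that are not core and -0.39 over the 7 core rows. Across the 324 other rows with a mass in their description it was -0.36. These coefficients are across genes of the same libraries, which are not independent replicates. The part of mass in the difference between core and accessory rows was not tested.

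**Figure D3:**
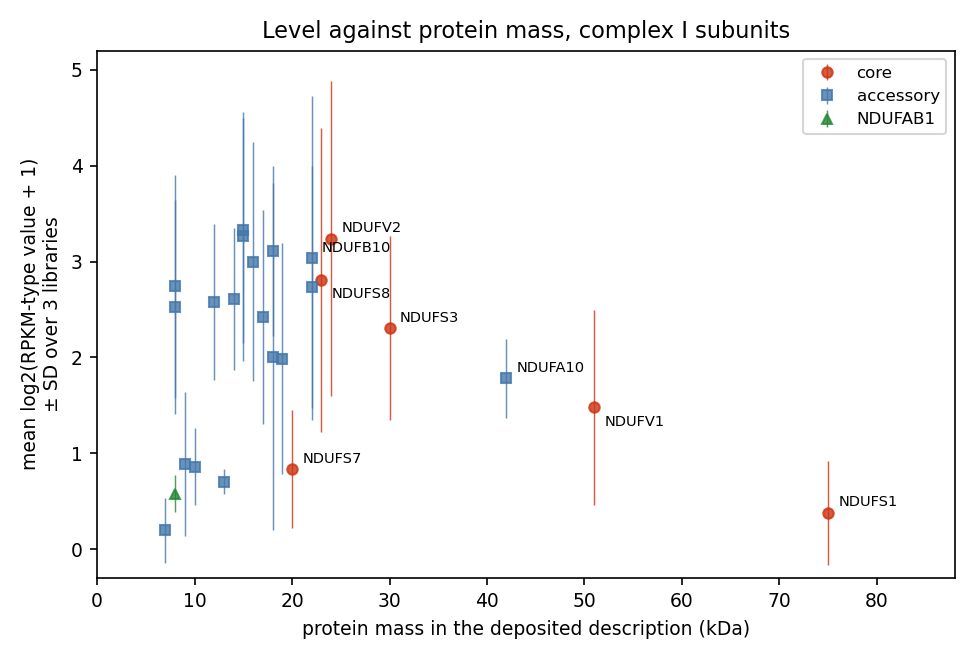
Mean log2(RPKM-type value + 1) with its SD over 3 libraries against the protein mass in the deposited description, for 25 of the 26 subunits that have one. The core subunits NDUFV1 and NDUFS1 lie at 51 and 75 kDa with means of 1.48 and 0.38, while core subunits of 23 and 24 kDa lie among the high accessory ones.

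Assembly factors of the NDUFAF group were low beside the subunits, and their maxima lay in different libraries. None of the 6 was detected, but 5 reached a value of 1 in 1 library, as did 2246 of all 25197 rows. Their median rank lay at percentiles 68.7, 85.1 and 91.6 of all rows in libraries 1, 2 and 3. NDUFAF3, which acts with NDUFAF4 in early assembly of the ubiquinone module, stood at 0.1, 3.3 and 0.8 in libraries 1, 2 and 3. NDUFAF2, a relative of the subunit NDUFA12 whose place it holds during assembly, stood at 2, 0.9 and 0.8, against 4.4, 16.1 and 5.6 for NDUFA12 itself. NDUFAF1, a partner of ECSIT and ACAD9 in building the membrane arm, stood at 0.8, 0.8 and 1. The maximum fell in a different library for each of these factors, but that of NDUFAF1 lay below the olfactory receptor percentile of library 3, 1.75.

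NDUFAF7, a mitochondrial methyltransferase, stood at 0.3, 0.9 and 1.4. NDUFAF5, which hydroxylates NDUFS7, stood at 0.2, 0.5 and 1.2, and NDUFAF6 at 0, 0.3 and 0. Of the 18 values of the 6 factors, 2 exceeded the 99th percentile of olfactory receptors in their library, namely NDUFAF2 in library 1 and NDUFAF3 in library 2. The maximum lay in library 3 for 3 of 6 factors, against 0 of 28 subunits and 12.6% of all rows, and in library 2 for 2 of 6 factors, against 26 of 28 subunits and 33.6% of all rows. The factors' share in library 2 was thus near that of all rows. No factor exceeded the olfactory receptor percentile in library 3, so the maxima there were not above this background. Assembly factors minus subunits differed by -2.00, -2.59 and -0.54 in median log2(value + 1) in libraries 1, 2 and 3 (-1.71 ± 1.06; SD, n = 3), from levels of 0.71 ± 0.34 for the factors and 2.42 ± 1.01 for the subunits. At values near 1 the factors cannot be ordered.

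Assembly factors with other names were also mostly low. Of 12 rows 1 was detected (8.33%, against 3.89% of all rows), namely COA1 (2.3, 5.7 and 1.9 in libraries 1, 2 and 3). The median log2(value + 1) of the list was 0.29 ± 0.25 (SD, n = 3). TMEM70 stood at 1.6, 5.7 and 0.1 and ECSIT at 0.2, 1.2 and 1.2.

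Of the nuclear subunits 17 of 28 rows were detected, against 2 of 7 rows for complex I subunits encoded by mitochondrial DNA. These are 60.7% and 28.6%, where 3.89% of all rows were detected. The difference of median log2(value + 1) was 2.06, 2.71 and 0.87 in libraries 1, 2 and 3 (1.88 ± 0.93; SD, n = 3), nuclear over mitochondrial. MT-ND6 (7.7, 6.2 and 1.4) and ND2 (1.2, 1 and 1.3) were detected, MT-ND5 stood at 4.3, 2.5 and 0.5, and the other 4 had means of 0.433 or less. ND2 lay below the 99th percentile of olfactory receptors in all 3 libraries and MT-ND6 in library 3. MT-ND6 and MT-ND5 adjoin on opposite strands, and the strand setting of the counting is not given in the sources used here. Library 2 was the highest for 26 of the 28 nuclear subunits and for 2 of these 7, which is near the 33.6% of all rows.

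Compared with the nuclear subunits of complexes II to V, complex I subunits were detected at 17 of 28 rows (60.7%) against 21 of 31 (67.7%). Their median log2(value + 1) was 2.42 ± 1.01, against 2.83 ± 0.96 for complexes II to V (SD, n = 3). The difference was -0.14, -0.44 and -0.65 in libraries 1, 2 and 3 (-0.41 ± 0.26; SD, n = 3). Among detected rows alone it was -0.72 ± 0.12. NDUFA4L2 was kept out of the complex I subunits. The list of complexes II to V holds low rows, among them COX4I2, COX6A2, COX6B2 and UQCRH_1, which lower its median. Detection within that list was 0 of 3 for complex II, 6 of 8 for complex III, 4 of 9 for complex IV and 11 of 11 for ATP synthase. The median level of ATP synthase was 3.6 ± 1.08 and that of complex III 2.96 ± 0.87, while complexes II and IV had 1.46 ± 0.77 and 1.57 ± 0.66 (SD, n = 3). On these lists the complex I median lay between those of these complexes. The complex IV median depends on which rows its list holds. COX7A1, COX4I2, COX6A2 and COX6B2 had means of 1.1 or less. The 4 detected rows, COX4I1, COX5B, COX5A and COX6B1, had means between 11.8 and 24.7. ATP5G3 (51.2 ± 33.9), ATP5J (35.2 ± 29.0) and ATP5G2 (30.8 ± 28.0; SD, n = 3) led the list, each above the highest NDUF mean of 14.0.

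Among enzymes that supply NADH to complex I, 1 of 7 rows was detected (14.3%, against 3.89% of all rows). This was MDH2, the malate dehydrogenase of the matrix (6.2, 25.8 and 6 in libraries 1, 2 and 3), and IDH3B (0.9, 3 and 3.3) and IDH3G (0.7, 2.5 and 0.1) followed. Of 8 regulators of mitochondrial gene expression, 1 met the rule (12.5%). This was the coactivator PPARGC1A (1.1, 1.1 and 3.9), which lay below the olfactory receptor percentile in library 1. TFAM stood at 1.1, 2.7 and 0, and ESRRA at 0.9, 1.3 and 0.3.

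The libraries stood in the same order within most detected NDUF rows. Library 2 was the highest for all 17 detected NDUF rows, against 75.0% of the 981 detected rows of the table, and for 28 of the 35, against 33.6% of all rows. Library 1 exceeded library 3 for 15 of the 17, against 61.0% of detected rows, and NDUFA12 and NDUFS3 were the exceptions. The median ratio of library 2 to library 1 was 2.91, against 2.20 for the 964 other detected rows and 2.58 for the 21 detected rows of complexes II to V. For library 2 to library 3 it was 6.20, against 2.82 and 4.65. The summed values themselves differed by 2.29-fold and 4.20-fold for the same pairs. Median log2 ratios of the 17 detected NDUF rows minus those of the sums were 0.35 and 0.56. The same was -0.06 and -0.58 for the 964 other detected rows and 0.17 and 0.15 for complexes II to V. With libraries scaled to the same sum, the median level of all 35 NDUF rows had an SD of 0.17 over the libraries, against 0.92 unscaled.

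Other lists moved between the libraries as well. The summed values of the trophectoderm markers were 38.2, 178.8 and 37.8 in libraries 1, 2 and 3. Those of 5 uterine epithelium markers, of which 4 were detected, were 60.1, 166.9 and 9.6. LGALS15 (18.8, 74.2 and 4.5), CST6 (24.9, 49.1 and 1.1) and FXYD4 (10.4, 30.2 and 1.8) had the highest means of these. Leukocyte markers summed to 2, 5.7 and 4.4 and erythroid markers to 0.9, 1.4 and 0.8, with none of 5 and none of 4 detected. AIF1 (0.3, 2.8 and 4.1) and CD74 (1.5, 1.3 and 0.1) each exceeded the olfactory receptor percentile in 2 libraries, and PTPRC, the common leukocyte antigen, stood at 0.1 in each. Mesoderm markers summed to 3.9, 5.4 and 0.4 with none of 4 detected, although VIM (3.4, 4.5 and 0.1) exceeded the olfactory receptor percentile in libraries 1 and 2. Extraembryonic endoderm markers summed to 8.5, 26.1 and 9.4 with 2 of 5 detected. With 3.89% of all rows detected, none of 4 or 5 rows is near that share and does not show that a cell type was absent. The part of these lists in the differences between libraries was not tested. Fewer vesicles of a source and less RNA per vesicle cannot be told apart.

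The ranking of the rows within a library was compared between libraries. Spearman's rho across all 35 NDUF rows was 0.87 for libraries 1 and 2, 0.70 for 1 and 3, and 0.77 for 2 and 3. Over the 17 detected rows it was 0.62, 0.18 and 0.36 for the same pairs, and over the 964 other detected rows 0.74, 0.62 and 0.52. These are descriptions across genes, and the 17 rows cover a narrower range of means, from 2.53 to 14.0.

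**Figure D4:**
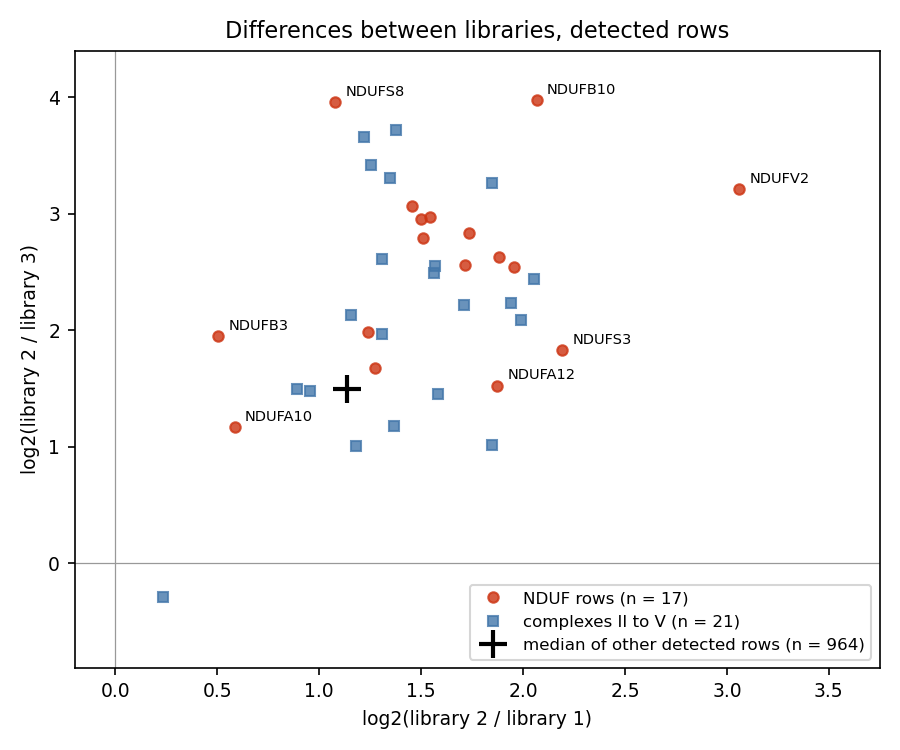
Log2 ratio of library 2 to library 1 (horizontal) and to library 3 (vertical) for the 17 detected NDUF rows and the 21 detected rows of complexes II to V; the cross is the median of the 964 other detected rows. All 17 NDUF rows have both ratios above 0; NDUFV2 has the largest ratio to library 1 (8.34-fold) and NDUFB10 the largest to library 3 (15.8-fold).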

How the data were processed

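RNA of vesicles precipitated with ExoQuick-TC from medium passed through a 0.2 µm filter was made into SMART-Seq v4 libraries from 5 ng of total RNA and sequenced as paired 50 bp reads on an Illumina HiSeq, per the labels' protocols. The authors deposited 1 table for the series. Its file names no unit, and the deposited values were taken as RPKM (FPKM would look alike): 0.12% of non-zero values of the short U6 rows were under 0.4, against 60.3% over all rows. Oar_v3.1 is the build named by the labels, per the submitters' processing notes; the aligner, counter and annotation were not given in the sources used here. Library columns were assigned by sample title and libraries numbered in accession order. Means, SDs and medians were computed with pandas 2.3.3 and Spearman's rho with scipy 1.17.1, without a filter except where detected rows are named. Class medians used log2(value + 1). Means and SDs of single genes used the values themselves unless log2(value + 1) is named, as did ratios between libraries and Spearman's rho. Rescaling of library sums, the detection rule and a difference of medians were run on planted values, whose outcome was fixed in advance. Percentiles and Spearman's rho were not checked in this way. No sequences or gene lengths were used, so whole reads, depth and counting intervals could not be given.

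Members, lists and classes were chosen with earlier results of these data known. Arms of the enzyme were assigned from general knowledge of its structure. Named genes were all core and NDUFAF rows, the 12 highest means, the extremes of each stem, the 5 largest SDs and the 3 highest rows of each other list; the remaining NDUF rows, and rows of marker lists given for a check, were named beyond it. Values of 1 NDUF row are not reported here, although it enters counts and medians. Alternatives were detection values of 0.5 and 2 or 2 libraries, pseudocounts of 0.1 and 0.5, detected rows only, equal library sums, other class definitions and leaving out each replicate.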

Additional observations from a re-analysis of the deposited data

How the results depend on the processing

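The number of detected NDUF rows was 17. It was 24 at a detection value of 0.5, 12 at 2, 21 with 2 libraries required and 19 with equal library sums, and lay between 17 and 19 with a replicate left out. Of the 44 alternatives run over 6 results, 38 moved the value by less than the spread between libraries or within 1.5 times the count, and none turned the direction of a mean over libraries. The mean over rows in place of the median, brought core minus accessory to -0.50. The remaining 6 follow. With only detected rows, core minus accessory was -0.074, matrix arm minus membrane arm -0.032 and complex I minus complexes II to V -0.72; fewer rows enter these values, and within libraries they reached 0.12 for core minus accessory and 0.36 for the arms. Matrix arm minus membrane arm was -0.54 and -0.45 with pseudocounts of 0.1 and 0.5, and -0.44 with equal library sums. With a replicate left out, core minus accessory lay between -1.33 and -0.71, the arms' difference between -0.40 and -0.38, assembly factors minus subunits between -2.30 and -1.27, complex I minus complexes II to V between -0.54 and -0.29, and the NDUF median level between 1.51 and 2.41. No paired analysis was possible because there is only 1 group. The reads behind each value are unknown.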
